A study of Rattus norvegicus with 8 samples.

Results

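Desmin and 9 further genes of mural cells, the smooth muscle cells and pericytes that wrap blood vessels, were followed in rat lumbar spinal cord. The rats had a nerve injury and were given an HDAC inhibitor or its vehicle, starting before the injury. The 10 genes were Des, Acta2, Tagln, Myh11, Cnn1, Myl9, Pdgfrb, Rgs5, Notch3 and Anpep, out of 14506 genes measured, and each was read by 1 probe set. They were selected with the measured values of these same arrays known, by which Des stood among the genes with the largest differences between HDACI and vehicle, and the others are genes of the cells that express it. The contrast between HDACI and vehicle is therefore given for them as a description, without a test.

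The samples were 8 Affymetrix Rat Gene 1.0 ST arrays, each of dorsal lumbar cord from the injured side of an adult male Wistar rat, taken on day 14 after transection of the L5 spinal nerve. In 4 rats (HDACI) an osmotic pump delivered MS-275, an inhibitor of class I histone deacetylases, into the intrathecal space at 30 nmol per day, and in 4 rats (vehicle) the pump delivered DMSO in saline. Pump, catheter and nerve injury were shared by both groups and infusion began before the injury, so the comparison is between injured animals with and without the drug, and no uninjured cord was analysed here. The tissue was whole, so that fewer cells of a type and less RNA per cell cannot be told apart.

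Mural cells give vessels their tone. Arterial smooth muscle cells carry a contractile apparatus of smooth muscle actin (Acta2), smooth muscle myosin heavy chain (Myh11), its regulatory light chain (Myl9), and the actin-binding proteins transgelin (Tagln) and calponin (Cnn1). Desmin (Des) is the intermediate filament of muscle, which ties the contractile apparatus to the membrane, and in brain and cord it is found mainly in pericytes and vascular smooth muscle. Pericytes sit on capillaries and depend on the PDGF receptor beta (Pdgfrb) for recruitment. They are also known for Rgs5, a regulator that turns off G-protein signalling, for Notch3, a receptor that maintains smooth muscle identity, and for Anpep, an aminopeptidase of the cell surface. Many contractile genes are switched on by serum response factor (SRF), with its partner myocardin, at a DNA element called the CArG box.

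The upstream sequences of Des and of the contractile genes Acta2 and Cnn1 are shown because Des had the largest difference and Acta2 is the classical SRF target. Each is the 250 bases before the annotated start in RefSeq, build GRCr8, written 5′ to 3′ on the gene's own strand. Capitals mark the E-box (6 bases, CANNTG) and, in Acta2 only, also 2 elements of 10 bases that match the CArG box with up to 1 mismatch. Des lay at chr9:84299376-84299625 on the plus strand, Acta2 at chr1:241172504-241172753 on the minus strand, and Cnn1 at chr8:28908187-28908436 on the plus strand.
Des: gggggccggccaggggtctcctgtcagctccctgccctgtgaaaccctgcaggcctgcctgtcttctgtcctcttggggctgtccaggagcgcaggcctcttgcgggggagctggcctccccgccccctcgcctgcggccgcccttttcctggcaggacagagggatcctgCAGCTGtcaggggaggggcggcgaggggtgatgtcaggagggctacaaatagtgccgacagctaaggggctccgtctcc
Acta2: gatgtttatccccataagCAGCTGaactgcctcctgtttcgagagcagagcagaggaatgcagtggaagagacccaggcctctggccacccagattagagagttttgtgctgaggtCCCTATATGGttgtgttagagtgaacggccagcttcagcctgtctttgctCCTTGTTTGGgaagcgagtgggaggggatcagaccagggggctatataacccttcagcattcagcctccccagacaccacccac
Cnn1: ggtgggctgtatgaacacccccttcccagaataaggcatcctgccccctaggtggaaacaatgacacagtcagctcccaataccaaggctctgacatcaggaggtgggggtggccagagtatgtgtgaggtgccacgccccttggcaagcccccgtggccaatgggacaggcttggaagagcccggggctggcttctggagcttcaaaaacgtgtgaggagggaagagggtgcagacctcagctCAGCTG

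A promoter was matched for 6 of the 10 genes, namely Des, Acta2, Cnn1, Rgs5, Notch3 and Anpep. Motifs were searched on both strands in windows from 250 bases before to 50 bases after the start, over 33469 rat promoters. An exact CArG box was in 0 of the 6 windows and in 1.64% of all windows. With up to 1 mismatch it was in 1 of 6, that of Acta2, and in 21.3% of all. The Acta2 elements lay 134 to 125 and 84 to 75 bases before the start. The E-box was in the windows of Des, Acta2 and Cnn1 and in 72.1% of all, and in Des it was CAGCTG, 79 to 74 bases before the start. The RBPJ core TGGGAA, the element of the Notch effector, was in 4 windows (Acta2, Cnn1, Notch3 and Anpep) and in 25.7% of all. In Acta2 it overlapped the nearer of the CArG-like elements. The MCAT element CATTCC was in Acta2 only and in 14.2% of all. The Des sequence had a GC content of 68.8%, against a median of 51.2% over all promoters. These matches describe the letters in these windows and not binding.

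The tissue was spinal cord by its markers, with 8 of 8 neuronal, 6 of 6 astrocyte, 5 of 5 oligodendrocyte and 9 of 9 microglial genes above the 95th percentile (6.93 log2 units) of the mean signals of 1105 olfactory receptor genes, which served as a background for probe sets with no expected transcript. All 10 mural genes and 12 of 12 endothelial genes were above that level too, Cnn1 closest to it. The arrays were alike as a whole, with pairwise correlations of 0.993 to 0.997. They differed in genes of peripheral nerve and meninges. The mean of 4 Schwann cell markers ran from 8.22 to 10.02 in HDACI and from 8.16 to 9.75 in vehicle, and that of 12 fibroblast and leptomeningeal markers from 8.32 to 9.29 and from 8.43 to 8.88. HDACI replicate 2 was the highest array for both.

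Des was higher in every HDACI array than in any vehicle array. Its log2 signal was 7.95, 8.46, 8.21 and 8.29 in HDACI replicates 1 to 4 and 7.34, 7.61, 7.61 and 7.65 in vehicle replicates 1 to 4. The groups did not overlap and were 0.30 apart at their nearest points, HDACI replicate 1 and vehicle replicate 4. The means were 8.23 ± 0.21 (SD, n = 4) and 7.55 ± 0.15 (SD, n = 4). The difference was 0.67 log2 units (SE 0.11, 95% interval 0.43 to 0.92), a ratio of 1.60 with an interval of 1.35 to 1.89. By this difference Des stood at position 13 from the top among the 14506 genes. The lowest array of all, vehicle replicate 1, stood apart from the other vehicle arrays, and without it the difference was 0.60. Without HDACI replicate 2, the highest, it was also 0.60.

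The other contractile genes had smaller differences, and for each of them the groups overlapped. Tagln was 9.33, 10.11, 9.66 and 9.40 in HDACI and 9.17, 9.16, 9.48 and 9.37 in vehicle. HDACI replicates 2 and 3 lay above all vehicle arrays, and the other HDACI arrays lay among them. The difference was 0.33 (SE 0.16, 95% interval -0.02 to 0.69), and 0.17 without HDACI replicate 2. Myh11 was 8.50, 8.86, 8.80 and 8.60 in HDACI and 8.25, 8.32, 8.56 and 8.67 in vehicle. Vehicle replicate 3 was above HDACI replicate 1, and vehicle replicate 4 was above HDACI replicates 1 and 4. The difference was 0.24 (SE 0.11, interval -0.01 to 0.48). Acta2 ran from 10.59 to 10.98 in HDACI and from 10.55 to 10.76 in vehicle, a difference of 0.11 (SE 0.09, interval -0.09 to 0.31) that was 0.04 without HDACI replicate 2 and 0.07 without vehicle replicate 1. Myl9 ran from 8.86 to 9.37 and from 8.83 to 9.03, a difference of 0.14 (SE 0.11, interval -0.11 to 0.38) that was 0.03 without HDACI replicate 2. Cnn1, the dimmest of the 10, ran from 6.89 to 7.19 and from 6.76 to 7.15, a difference of 0.11 (SE 0.09, interval -0.10 to 0.32) that was 0.04 without vehicle replicate 2 and 0.07 without HDACI replicate 2 or 3. In all 3, as in Tagln, HDACI replicates 2 and 3 were the arrays above the vehicle range. Signal that probes for the actins and light chains may take from near-identical genes was not tested.

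**Figure D1:**
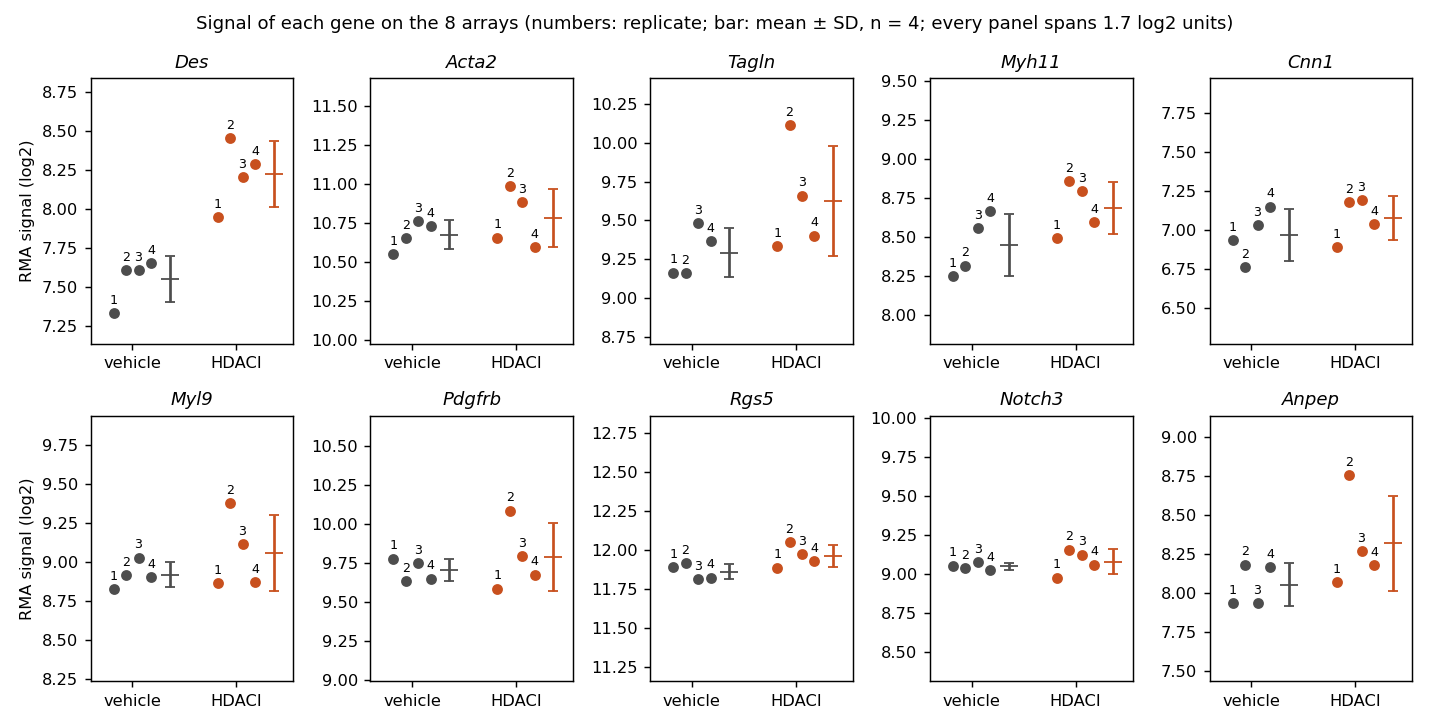
Log2 signal (RMA) of each of the 10 genes in the 4 HDACI and 4 vehicle arrays, with a numbered point for each replicate and, beside the points, the mean ± SD (n = 4); panels have different axis ranges of the same span, and the axes do not start at 0. Des is the only panel in which all HDACI points, 7.95 to 8.46, lie above all vehicle points, 7.34 to 7.65.

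Among the genes of receptors, signalling and the cell surface, Anpep and Rgs5 had the largest differences, and in all 4 the groups overlapped. Anpep was 8.07, 8.75, 8.27 and 8.18 in HDACI and 7.93, 8.18, 7.93 and 8.16 in vehicle. HDACI replicates 2 and 3 were above every vehicle array, and replicate 4 was level with vehicle replicate 2. The difference was 0.26 (SE 0.14, 95% interval -0.04 to 0.57), and 0.12 without HDACI replicate 2. Rgs5 was 11.89, 12.05, 11.98 and 11.93 in HDACI and 11.89, 11.92, 11.82 and 11.82 in vehicle. All HDACI arrays but replicate 1 were above the vehicle range, with a difference of 0.10 (SE 0.05, interval -0.01 to 0.21). The receptor genes differed least. Pdgfrb ran from 9.58 to 10.08 in HDACI and from 9.63 to 9.78 in vehicle, a difference of 0.08 (SE 0.10, interval -0.14 to 0.30) that was -0.02 without HDACI replicate 2. Notch3 ran from 8.98 to 9.16 and from 9.03 to 9.08, a difference of 0.03 (SE 0.05, interval -0.08 to 0.14) that was 0.00 without HDACI replicate 2. Both had their lowest value of all in HDACI replicate 1.

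The 10 genes thus had differences above 0 in 10 of 10 cases, against 42.1% of all genes. Of the 10, 1 (Des) had an unadjusted p under 0.01 in the higher direction and 0 in the lower, where 0.607% and 0.855% of all genes did. Des was also the 1 gene of the 10 whose groups did not overlap, against 1.42% of all genes with HDACI above vehicle and 3.6% with HDACI below. Since the genes were chosen on this contrast, nothing is read from these counts. In the limma fit no gene of the 14506 passed the Benjamini-Hochberg adjustment, with a lowest adjusted p of 0.61, and 1124 genes had an unadjusted p under 0.05. The median difference was 0.12 over the 10 genes, 0.19 over the 6 contractile ones with Des, 0.09 over the other 4 and -0.01 over all genes.

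**Figure D2:**
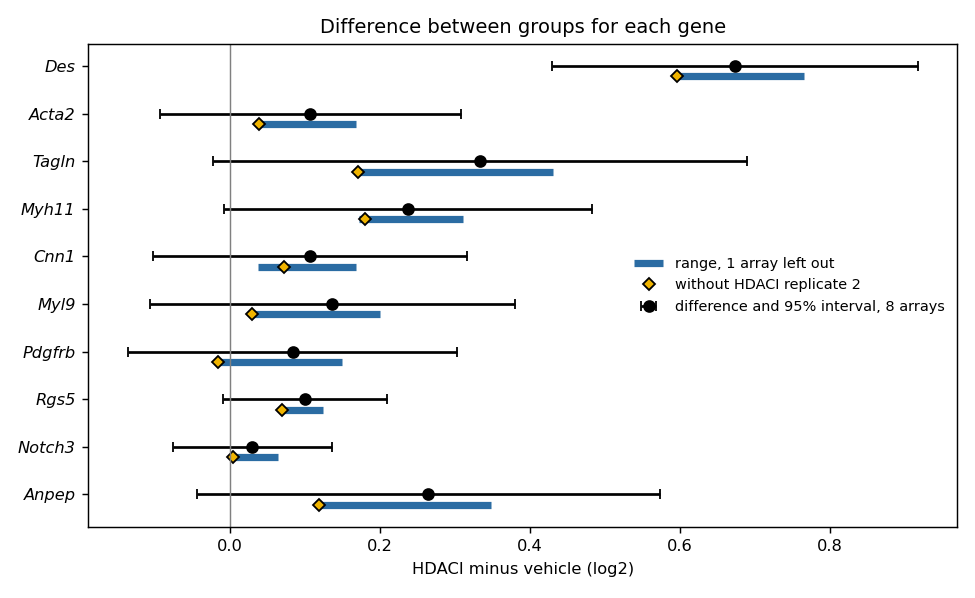
HDACI minus vehicle difference of each gene on the log2 scale with its 95% interval over 8 arrays (points and black bars), the range when 1 array is left out (blue), and the value without HDACI replicate 2 (yellow). The interval of Des, 0.43 to 0.92, lies above 0, and those of the other genes include 0.

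HDACI replicate 2 stood highest for most of the genes. It was the highest of the 8 arrays for 9 of the 10 genes, and Cnn1 was highest on HDACI replicate 3. Without it the median difference of the 10 genes fell from 0.12 to 0.07. The mean of the 9 genes other than Des was 9.19, 9.62, 9.42 and 9.26 in HDACI replicates 1 to 4 and 9.15, 9.18, 9.27 and 9.28 in vehicle replicates 1 to 4. HDACI replicate 1 lay inside the vehicle range and replicate 4 just below its top. Set against the mean of the other 5 contractile genes, Des was -0.90, -0.84, -0.92 and -0.61 in HDACI and -1.41, -1.15, -1.36 and -1.31 in vehicle, a difference of 0.49. Des was selected for its difference on these arrays, so this and the comparison with endothelium below are descriptions only. The same array was high for markers of other cells. The mean of 12 endothelial genes was 9.46, 9.82, 9.67 and 9.63 in HDACI and 9.55, 9.60, 9.55 and 9.54 in vehicle. Relative to that endothelial mean, Des was -1.42 ± 0.08 in HDACI and -2.01 ± 0.15 in vehicle (SD, n = 4 each), a difference of 0.59, and the mean of the 9 other genes differed by 0.07.

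**Figure D3:**
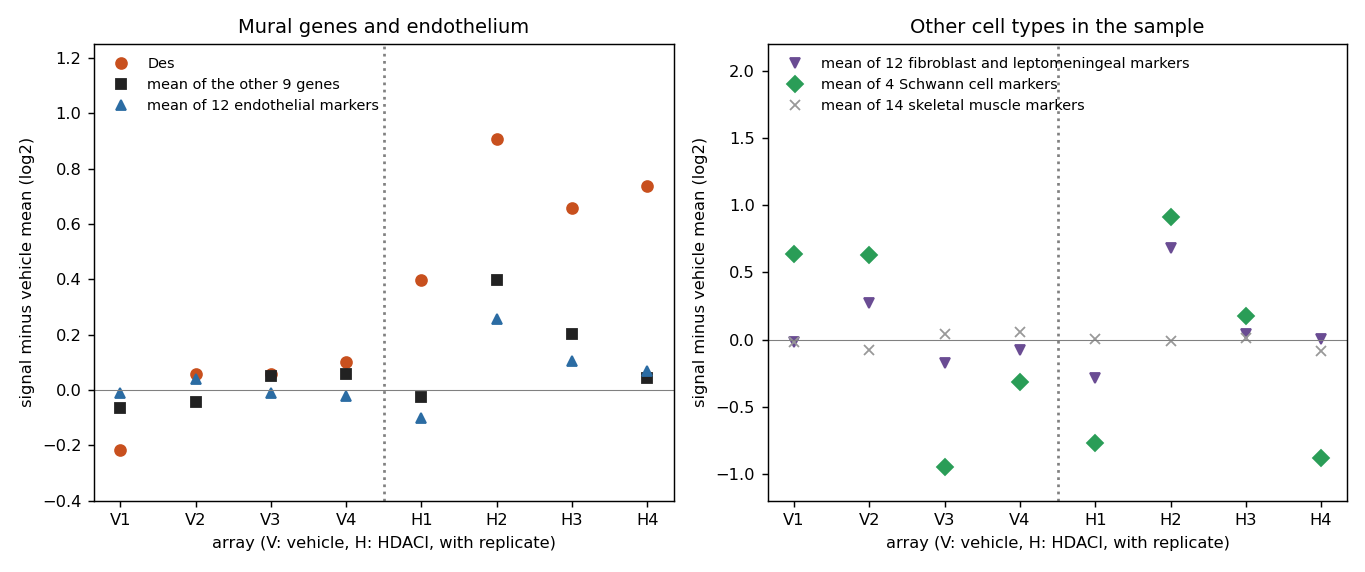
Mean log2 signal in each of the 8 arrays of Des, of the other 9 genes and of marker groups for other cells, each set relative to its own vehicle mean (one point for each array). Des is above its vehicle mean on all 4 HDACI arrays, while the marker groups for fibroblasts and Schwann cells are highest on HDACI replicate 2.

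Schwann cell markers varied widely within both groups. Pmp2, a myelin protein of peripheral nerve, was 8.29, 12.15, 10.63 and 8.10 in HDACI and 11.92, 11.05, 7.98 and 9.51 in vehicle, and the lowest Des array, vehicle replicate 1, was the second highest for it. Igf2, Aldh1a2 and Slc6a13, of the fibroblast and leptomeningeal list, were lowest on vehicle replicate 1, as Des was, at 8.57, 7.48 and 8.65. They were highest on HDACI replicate 2, also as Des was, at 9.84, 9.05 and 10.02. The other genes of that list had their lowest values on other arrays. Skeletal muscle, another tissue in which desmin is abundant, was represented by 14 genes with a mean of 6.93 to 7.03 in HDACI and 6.94 to 7.07 in vehicle. Of these 14, 7 were above the olfactory receptor level, and 0 had an unadjusted p under 0.01. The part of these other cells in the differences of the mural genes was not tested beyond these values.

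Further genes of the same cells and pathway had mostly small differences. Of 14 other contractile and cytoskeletal genes of smooth muscle, 9 were above 0 and 0 had an unadjusted p under 0.01 in either direction, with a median of 0.06 that was 0.02 without HDACI replicate 2. Cald1, which codes for caldesmon, an actin-binding regulator of contraction, had the largest difference, 0.26 (SE 0.13), while Vcl (vinculin) was at 0.12 and Tpm2 (a tropomyosin) at 0.09. Of 4 genes of the SRF and myocardin group, 2 were above 0 and 0 passed. Srf itself was at -0.02 and Myocd at 0.13 (SE 0.09). Myocd was 7.14 to 7.41 in HDACI, 6.90 in vehicle replicate 2 and 7.24 to 7.29 in the other vehicle arrays. Of 15 other pericyte genes, 9 were above 0 and 1 passed, with a median of 0.01 that was -0.01 without HDACI replicate 2. The gene that passed was Cox4i2, a subunit isoform of cytochrome c oxidase, with a difference of 0.21 (SE 0.06) and an unadjusted limma p of 0.0084 (adjusted p 0.61). That call was lost on leaving out HDACI replicate 2, 3 or 4 or vehicle replicate 1, 3 or 4, where its unadjusted limma p rose as far as 0.0269. It was also lost with a mean-signal trend and robust moderation (limma p 0.0103), without moderation (p 0.0197 from the same linear model) and with the endothelial mean subtracted (limma p 0.202, difference 0.13). Kcnj8, a pericyte potassium channel, was at 0.11 and Ebf1, a transcription factor, at 0.18. Others of the 15 were below 0, with Mcam the lowest at -0.14 (SE 0.13) and Abcc9 at -0.09 (SE 0.06).

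Of 23 genes for ligands, receptors and intracellular effectors of signals to mural cells, 19 were above 0 and 0 passed, with a median of 0.12 that was 0.08 without HDACI replicate 2. Pdgfra and Eng in this list were also counted in other lists. The smallest unadjusted p values were those of Angpt2, the angiopoietin that loosens contact between endothelium and mural cells, with a difference of 0.26 (SE 0.10), of Agtr1a, an angiotensin receptor, at 0.22 (SE 0.08), and of Tgfb2, a TGF-beta ligand, at 0.22 (SE 0.09). Of 18 relatives of the 10 genes by family, 11 were above 0 and 0 passed, with a median of 0.06 that was 0.01 without HDACI replicate 2. By unadjusted limma p the first 3 were Cnn3 at 0.18 (SE 0.07), Myh10 at -0.10 (SE 0.04) and Pdgfra at 0.17 (SE 0.09). Vim, the intermediate filament found in most non-neuronal cells, was at 0.08. The actin genes Actb, Actg1, Acta1 and Actg2 were at 0.03, -0.02, -0.07 and 0.08. The transgelin relative Tagln2 was at 0.18 and the light chain relatives Myl12a and Myl12b at 0.05 and -0.06. Of 12 endothelial genes 11 were above 0 and 0 passed, with a median of 0.07, which was 0.02 without HDACI replicate 2. Of 12 fibroblast and leptomeningeal genes 8 were above 0 and 0 passed, with a median of 0.16 that was -0.04 without HDACI replicate 2. Their first 3 by unadjusted limma p were Igf2 at 0.47 (SE 0.22), Pdgfra at 0.17 (SE 0.09) and Aldh1a2 at 0.41 (SE 0.24). For each of these the groups overlapped, and the lowest of the 12 was Dcn at -0.36 (SE 0.43). In the remaining lists 0 genes passed in either direction. Differences were above 0 for 1 of 8 neuronal, 5 of 6 astrocyte, 3 of 5 oligodendrocyte, 8 of 9 microglial and 0 of 4 Schwann cell genes, with medians of -0.04, 0.06, 0.03, 0.11 and -0.13. Without HDACI replicate 2 these medians were 0.01, 0.05, 0.00, 0.06 and -0.41. Among the Schwann cell genes, Sox10 was level, with a mean of 10.47 in HDACI and 10.47 in vehicle.

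**Figure D4:**
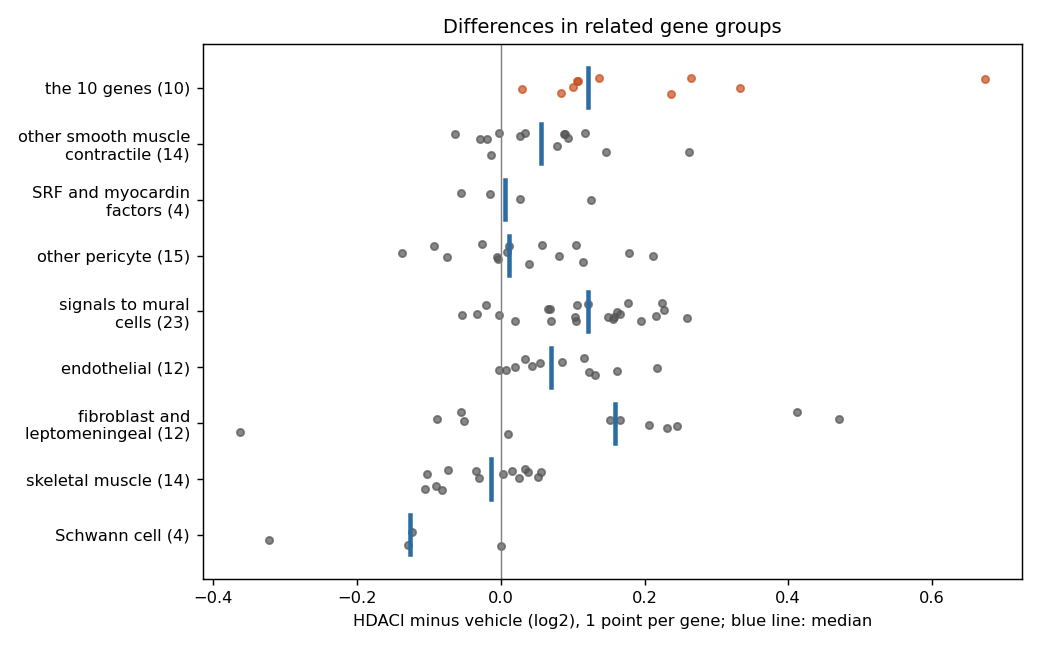
HDACI minus vehicle difference (log2) of each gene in the mural set and in groups of related genes and other cell markers, with a point for each gene and a blue line for each group's median. Des, at 0.67, lies to the right of every gene plotted, and the next highest outside the 10 genes is Igf2 at 0.47 (SE 0.22).

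Within the groups the mural genes varied together from array to array. Correlations were taken over 8 arrays after subtraction of each group's mean, and are descriptions in which all points share the array and its tissue piece. All 45 pairs of the 10 genes were above 0, with a median Pearson r of 0.71, from 0.06 (Cnn1 with Rgs5) to 0.97 (Tagln with Myl9). High values were found among contractile genes, with 0.94 for Acta2 with Myl9 and 0.92 for Acta2 with Tagln, and also with the receptor genes, at 0.88 for Pdgfrb with Tagln and with Notch3. Other contractile pairs were lower, such as 0.53 for Des with Cnn1 and 0.54 for Cnn1 with Myl9. Des followed the other 9 with a median of 0.66, from 0.45 (Rgs5) to 0.78 (Anpep). Without HDACI replicate 2 the median of the 45 pairs was 0.47, with 40 above 0, and that of Des with the others was 0.46. Against the endothelial mean, r was 0.79 for Des, 0.91 for Notch3 and 0.86 for Rgs5. Without HDACI replicate 2 that of Des was 0.65, and the other values against marker means given here are over all 8 arrays. Against the Schwann cell mean r was 0.20 for Des, 0.68 for Anpep and 0.94 for Rgs5. Rgs5 and Anpep thus varied with the peripheral nerve and fibroblast markers, with r of 0.94 and 0.92 against the fibroblast mean. Des was at 0.68 against that mean, within the range of the remaining genes, 0.16 (Cnn1) to 0.77 (Pdgfrb). That mean pools fibroblast and leptomeningeal genes, and correlations with its single genes were not taken. Of these, Igf2, Aldh1a2 and Slc6a13 had the same highest and lowest arrays as Des, and the other genes of the list did not.

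**Figure D5:**
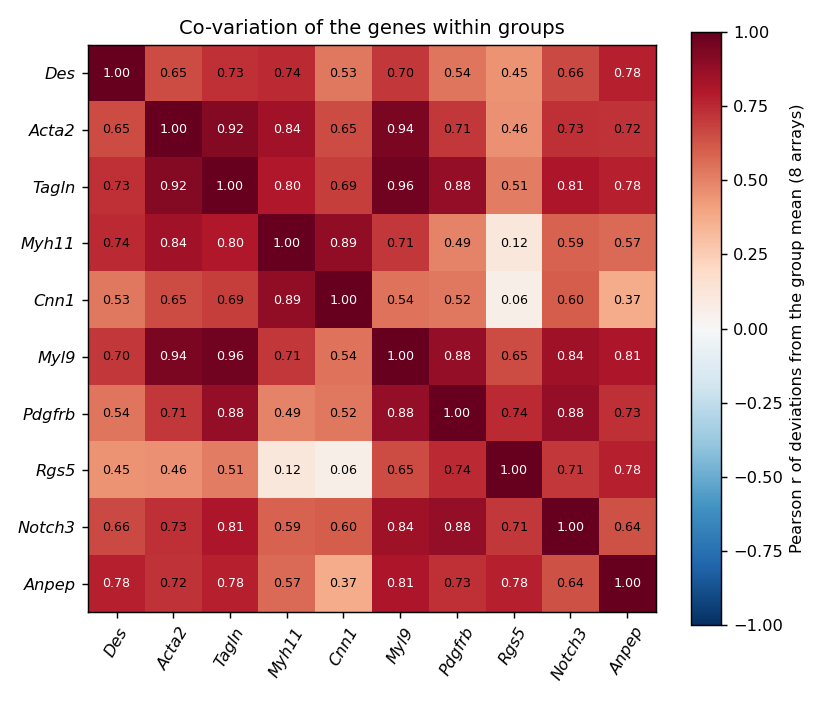
Pearson r between the 10 genes over 8 arrays after each group's mean was removed, as a coloured grid. All values are above 0, the highest is 0.97 for Tagln with Myl9, and the lowest is 0.06 for Cnn1 with Rgs5.

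The genes whose within-group pattern was most like that of Des over the 8 arrays were Prss23, Ccdc167, Nemp2, Vasn and Gjb2, each with r of 0.97 or 0.98. Of these, Gjb2, the gap junction protein connexin 26, also differed between the groups, by 0.52 (SE 0.12), and its r with Des over the 8 arrays with the group difference kept was 0.98. The other 4 differed by -0.03 to 0.13. These 5 were the top of an order over 14506 genes and are given as a description only. Among the mural genes Anpep stood highest in this order, at position 271, and Rgs5 lowest, at position 1999. The genes most like the mean of all 10, with r of 0.96 or 0.97, were Pkhd1l1, Zbtb46, Pla2g2a, Serpinb10 and Tnnt2, and their differences ran from -0.10 to 0.20.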

How the data were processed

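Dorsal lumbar cord RNA from 4 HDACI and 4 vehicle rats was measured on Affymetrix arrays. The authors deposited log2 intensities that they had made with RMA, which subtracts background, normalizes across arrays and summarizes probes into 29214 probe sets. The sources used here give no depth beyond the number of arrays, which limits the precision. Probe sets were named from the platform annotation, updated to RefSeq symbols (GRCr8) by Entrez identifier for 15279 of the 15310 with 1 symbol, while 323 had several and 13581 were not listed and stayed out. Probe sets of a gene were averaged, leaving 14506 genes. HDACI and vehicle were compared with limma 3.58.1 in R 4.3.3 (lmFit and eBayes, no covariate), with Benjamini-Hochberg adjustment over all genes. A gene was called at an unadjusted p under 0.01. The limma fit was tested on simulated data, in which values were drawn independently for each gene and array. Nothing in the labels gives extraction or hybridisation batches. P-values measure the spread between these animals. The members and the related lists were chosen with earlier results of these data known. Beyond the members, genes were named from the 3 with the smallest limma p in a list, those called, the relatives of the members (by family, since protein sequences were not used here), and the 5 most correlated with Des and with the members' mean. Srf and the genes shown as tissue markers with array values were named by role after their values were seen. Mcam, Abcc9, Dcn, Sox10 and the genes named by their place on vehicle replicate 1 were also added after their values were seen. The alternatives tried were other summaries, filters, normalizations, weights, a replicate block, subtraction of the endothelial mean, and leaving out each array. Alternatives for Cox4i2 and for the correlations without HDACI replicate 2 were chosen after seeing the data. Dorsal root ganglion arrays of the study were not analysed here.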

Additional observations from a re-analysis of the deposited data

Results flagged for a closer look

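Of 132 sets of 4 arrays tested with Dixon's criterion, in which chance marks about 1 in 20, 3 held an array far from the others. Des was 7.34 in vehicle replicate 1 and 7.61 to 7.65 in the other vehicle arrays. Myocd, the coactivator of SRF, was 6.90 in vehicle replicate 2 and 7.24 to 7.29 in the others. Mbp, a myelin protein, was 11.34 in vehicle replicate 4 and 11.40 to 11.41 in the others.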

How the results depend on the processing

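The difference of Des was 0.59 to 0.77 over the 19 alternatives that gave it a value, and 0.60 to 0.77 when 1 array was left out. In the fit on genes above the median signal only, Des, Myh11, Cnn1 and Anpep were not tested, so that 0 of the 6 remaining genes were called higher and 6 were above 0. Leaving out 1 array gave 1 gene called higher, 0 called lower, 9 to 10 above 0, and a median difference of the 10 genes of 0.07 (without HDACI replicate 2) to 0.18 (without HDACI replicate 1). With the endothelial mean subtracted, Des was at 0.59 and the median of the 10 genes was 0.04, with Notch3 at -0.05 and Rgs5 at 0.02. The median of all genes moved from -0.01 to -0.10 there, limma's prior degrees of freedom moved from 3.36 to 35.66, and 16 of all genes passed the adjustment, against 0. Without HDACI replicate 3, and without vehicle replicate 2, 2 genes passed it. Replicate numbers did not pair the arrays (correlations of same-numbered deviations -0.27, 0.36, 0.04 and 0.06), and with the replicate block Des was at 0.67 (SE 0.06). Pdgfrb was at -0.02 without HDACI replicate 2. The median pairwise correlation was 0.47 without that array. Over all genes, 88 were called higher and 124 lower, against 60 and 193 without moderation, 148 and 100 after further quantile normalization, 121 and 66 with the block, 56 and 143 after the endothelial subtraction, and 46 and 67 without HDACI replicate 4.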
